A study of Mus musculus with 6 samples.

Results

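Cytosolic ribosomal protein genes were examined in RNA-seq of mouse primary cardiac fibroblasts. The genes were taken by name, as every row of the gene table whose symbol begins with Rpl or Rps, leaving out the kinases and binding proteins that share these letters (Rps6k, Rps19bp) and rows marked as pseudogenes. This gave 86 of 22063 genes, 52 with Rpl symbols, read as the large subunit, and 34 with Rps symbols, read as the small subunit. The group itself was selected on measured values, because ribosomal protein genes were prominent in earlier results of the same CRE against GFP comparison. Differences between CRE and GFP are therefore given below as a description. Calls from the test over all genes are counted, but they are not independent evidence for these genes.

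All 6 libraries came from fibroblasts of mice with loxP-flanked Tet3 alleles (Tet3 f/f), labelled as heart fibroblasts. The 3 GFP libraries (genotype label Control) received an adenovirus coding for green fluorescent protein, and the 3 CRE libraries (genotype label Tet3 knockout) one coding for Cre recombinase, which cuts out DNA between loxP sites. TGF-β, which activates fibroblasts, was given to all 6. TET3 oxidises 5-methylcytosine in DNA, and the comparison asks what changes when it is reduced in activated fibroblasts. The virus reaches whatever cell types the culture holds, and the age of the mice and any pooling of animals are not given in the sources used here. The legend of the study calls its replicates biological, but neither it nor the labels say whether these libraries came from separate animals or from separate cultures of the same cells.

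A ribosome joins a large and a small subunit, each built from ribosomal RNA and many proteins that are made in the cytosol and assembled mostly in the nucleolus. Their genes are scattered over the genome, yet their mRNAs are kept near a common level. Most of these mRNAs begin with a C followed by a run of C and T, the terminal oligopyrimidine (TOP) tract, through which mTORC1 and the RNA-binding protein LARP1 set their translation and stability. A few genes have a paralogue that is used in particular tissues or at low level, and many have retrocopies elsewhere in the genome whose sequence is nearly the same.

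The windows below show the letters around the RefSeq start site of common genes, as examples of the TOP tract, and of copies and paralogues that are described below (GRCm38.p6, 25 bases before the start and 25 from it on, 5′ to 3′ on the gene's strand). Capitals mark the run of C and T that begins at the start base. The first 5 are common genes, from the large subunit (Rpl35, Rpl28), the small subunit (Rps6, Rps10) and the stalk (Rplp2).
Rpl35, chr2:39005107-39005156, minus strand: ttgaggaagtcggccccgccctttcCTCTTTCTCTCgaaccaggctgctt
Rpl28, chr7:4792940-4792989, plus strand: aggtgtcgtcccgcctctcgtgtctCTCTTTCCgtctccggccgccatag
Rps6, chr4:86857343-86857392, minus strand: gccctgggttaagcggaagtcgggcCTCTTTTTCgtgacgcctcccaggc
Rps10, chr17:27635220-27635269, minus strand: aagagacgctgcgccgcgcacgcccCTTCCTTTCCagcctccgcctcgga
Rplp2, chr7:141447626-141447675, plus strand: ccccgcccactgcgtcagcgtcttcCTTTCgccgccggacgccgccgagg

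Rps27 and its copy Rps27rt are shown together because the transcribed letters are nearly the same while those before the start are not.
Rps27, chr3:90213624-90213673, minus strand: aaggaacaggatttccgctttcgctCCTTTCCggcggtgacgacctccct
Rps27rt, chr9:114982715-114982764, minus strand: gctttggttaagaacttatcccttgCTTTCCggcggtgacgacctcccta

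The paralogues Rpl22l1, Rps27l and Rpl7l1 have no such run at the listed start base and carry no capitals. In Rpl22l1 and Rps27l a run of C and T lies just inside the listed start.
Rpl22l1, chr3:28805483-28805532, plus strand: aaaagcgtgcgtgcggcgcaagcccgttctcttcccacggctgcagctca
Rps27l, chr9:66946061-66946110, plus strand: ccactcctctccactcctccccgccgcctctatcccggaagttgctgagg
Rpl7l1, chr17:46782632-46782681, minus strand: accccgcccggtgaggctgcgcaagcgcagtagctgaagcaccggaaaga

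Promoter windows of 300 bases (250 before and 50 after the start) were found for 66 of the 86 genes, 78 windows in all. A C at the start base followed by at least 4 C or T was present in 14 of these windows (17.95%), against 2.505% of the 32851 windows of all genes, read on the gene's strand only. Listed starts can be off by some bases, so a window without the run at that base may still hold one nearby, as Rpl22l1 and Rps27l do. The letters CCGGAAG, the core bound by ETS factors, were found on either strand in 34.6% of member windows and 8.86% of all. The GC box GGGCGG was found in 59.0% and 35.7%, and TATAAA in 8.97% and 13.6%. None of these 3 words contains another, although neighbouring matches may share bases, and a match is a description of the sequence and not a bound site. Of the 14 genes with the run at the listed start, all were tested, with a median log2 fold change of -0.58, and 12 were called lower in CRE, beside 78 of all 82 tested members and 25.7% of all tested genes.

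Total gene counts were between 17002126 and 20343590 per library. Tet3 had 1044, 965 and 1000 counts in GFP replicates 1, 2 and 3 and 642, 649 and 637 in the CRE replicates, a CRE mean 60.8% of the GFP mean after normalization (log2 fold change -0.72, SE 0.08, edgeR adjusted p = 5.36e-05). The count covers the whole gene and does not single out the floxed exons. The label as fibroblasts was checked on markers. The 9 fibroblast markers were all measured, with Col1a1 at 13722 ± 443 CPM (counts scaled to a common effective library size of 1e6 by TMM, SD, n = 3) in GFP. Tcf21 and Thy1 were far lower in GFP, at 36.1 ± 3.07 and 26.4 ± 2.02 CPM. Summed over each list in GFP, the fibroblast markers reached 29274 to 30439 CPM and the 5 endothelial markers 316 to 351 CPM. The 5 cardiomyocyte markers together reached 0.563 to 0.675 CPM in GFP and 0.554 to 0.698 CPM in CRE, with Myh6 at 0 in every library. Of 12862 genes with enough counts to be tested, 25.7% were called lower in CRE and 25.5% higher at an edgeR adjusted p under 0.05.

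Nearly all ribosomal protein mRNAs were lower in CRE, by a similar amount. Of the 82 members with enough counts, 78 were called lower (25.7% of all tested genes were) and 0 higher (25.5% of all). No member was higher at an unadjusted p under 0.05 either, and DESeq2 and limma-voom also called 0 higher. The median log2 fold change was -0.59, or 66.3% of the GFP level, with quartiles of -0.69 and -0.51. Across all tested genes the median was 0.01. In 77 of the 82, every CRE library lay below every GFP library, as it did in 29.6% of all tested genes. At the study's own threshold (fold change under 0.66, p under 0.05 before adjustment), 40 members were lower, against 10.3% of all tested genes. That fold lies near the middle of the members, so the threshold divides genes with like values. Rpl23a lay just inside it, at a log2 fold change of -0.60, and Rps7 just outside it, at -0.58. In bulk RNA a lower level in each cell and fewer cells of the kind that expresses a gene highly cannot be told apart.

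**Figure D1:**
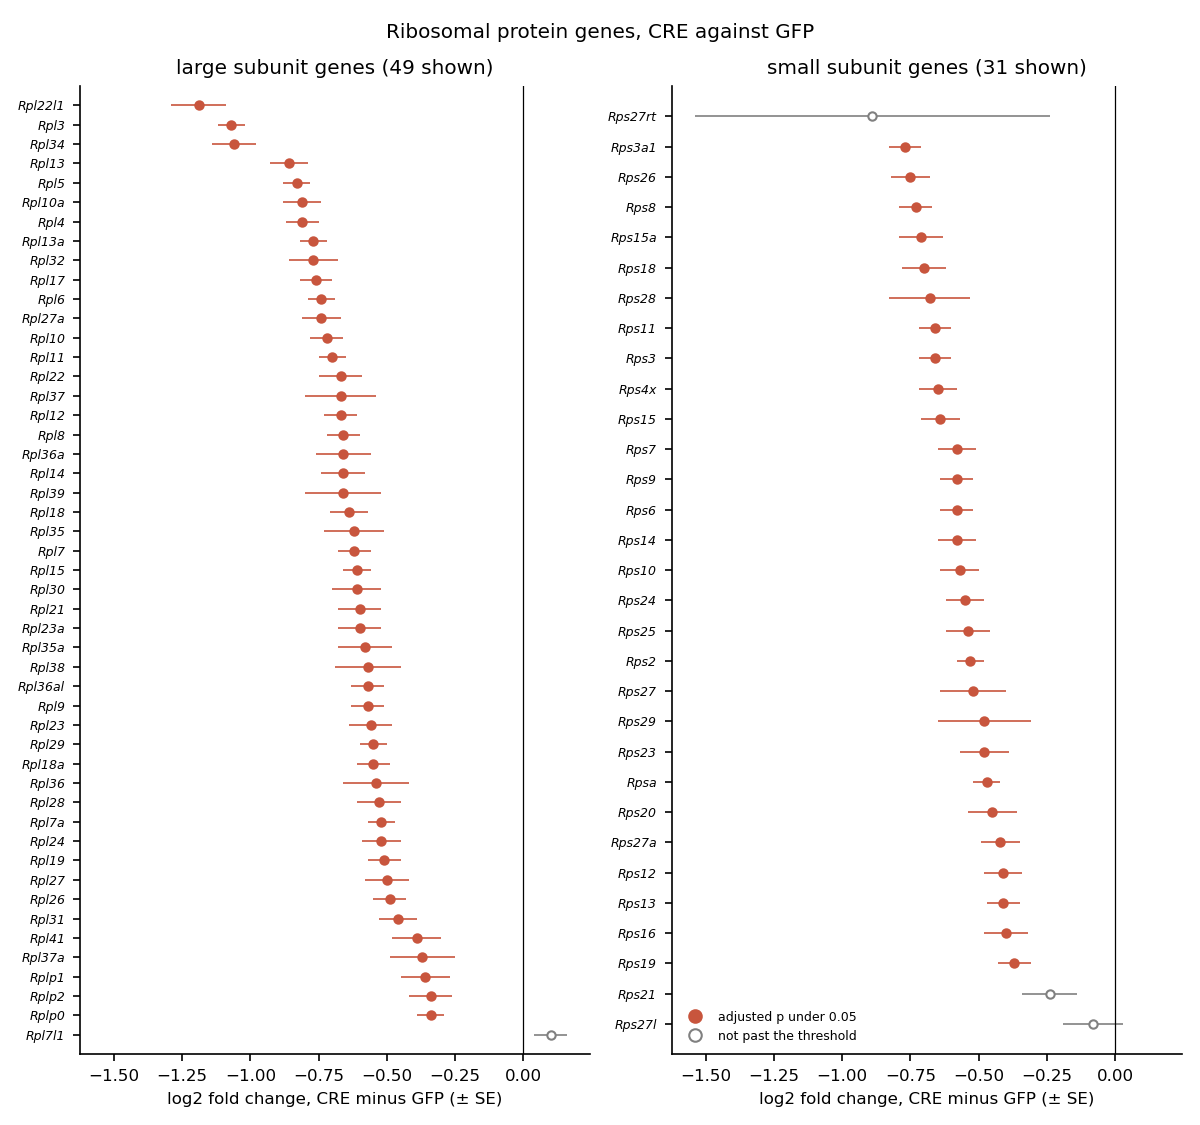
Log2 fold change of CRE against GFP (x axis, point) with its standard error (bar) for 80 of the 82 tested ribosomal protein genes, one per row, with the large subunit on the left and the small subunit on the right. Filled points passed an adjusted p under 0.05, and all 76 of them lie left of 0, while the 4 open points are Rpl7l1, Rps21, Rps27l and Rps27rt.

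The decline was seen in the shares of the libraries as well. Member genes took 2.86%, 2.65% and 3.01% of all counts in GFP replicates 1, 2 and 3. In the CRE replicates, in the same order, they took 2.18%, 1.94% and 2.15%. The group means were 2.84% ± 0.18 and 2.09% ± 0.13 (SD, n = 3), and the groups did not overlap. With the 100 most counted other genes taken out of the total, the shares were 3.87% ± 0.25 and 2.72% ± 0.17.

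The libraries of a group were not alike in these genes. Relative to the GFP mean, the median member stood at -0.01, -0.11 and 0.11 on the log2 scale in GFP replicates 1, 2 and 3. Its values in the CRE replicates, in that order, were -0.51, -0.75 and -0.54. Of 81 members (Rps27rt, with a library at 0, left out), 71 were highest within their group in GFP replicate 3, 79 were lowest in GFP replicate 2 and 79 were lowest in CRE replicate 2. The members thus moved together from library to library within a group, by less than the distance between the groups. Without GFP replicate 3 and CRE replicate 2 the median log2 fold change was -0.47 and 74 members were called lower, where 2340 of all genes were (3306 in the main fit). The source of this spread was not tested.

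**Figure D2:**
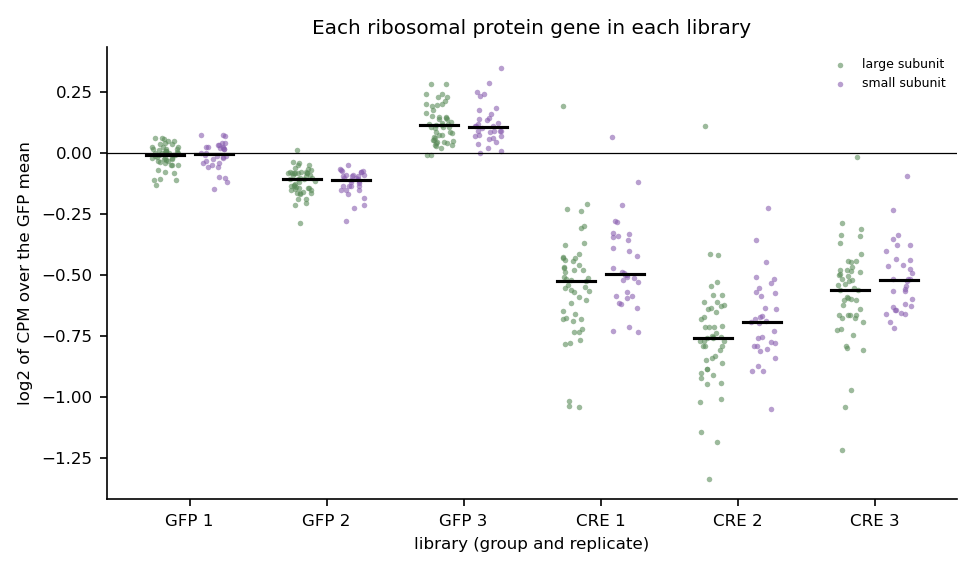
Each point is one ribosomal protein gene in one library, as log2 of its CPM over its GFP mean (y axis), with the 6 libraries on the x axis, large subunit genes left and small subunit genes right in each library, and black bars for medians. Medians lie between -0.11 and 0.11 in GFP and between -0.76 and -0.50 in CRE, with CRE replicate 2 lowest.

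Libraries of a group lay further apart in the 21 shortest members than in the 21 longest. Among the 21 members with the shortest transcript length implied by the deposited values (345 to 558 bases), the median member stood at -0.05, -0.15 and 0.20 in the GFP libraries and at -0.47, -0.76 and -0.52 in the CRE libraries. The 21 longest (975 to 3706 bases) stood at 0.01, -0.09 and 0.06 in GFP and at -0.57, -0.76 and -0.60 in CRE. Their median log2 fold changes were -0.57 and -0.62, with median standard errors of 0.10 and 0.06. Across the 81 members the fold change had a Spearman rho of -0.15 with implied length, 0.08 with GC content and -0.27 with the GFP level. These are correlations across genes that share libraries, and genes are not independent replicates.

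Genes of both subunits were lower, where 25.7% of all tested genes were called lower. Of 49 tested large subunit genes 48 were called lower, with a median log2 fold change of -0.61 (SD across genes 0.20). Of 33 tested small subunit genes 30 were called lower, with a median of -0.58 (SD 0.16). Restricted to the common copies, the medians were -0.62 for 46 large subunit genes, all called lower, and -0.58 for 31 small subunit genes, of which 30 were called lower. In shares of counts, the large subunit genes took 1.61% to 1.82% in GFP and 1.16% to 1.30% in CRE, and the small subunit genes 1.05% to 1.19% in GFP and 0.786% to 0.878% in CRE.

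Among the large subunit genes, Rpl3 and Rpl34 stood furthest down of the common copies. Rpl3, a protein that reaches from the surface towards the site of peptide bond formation, had 722, 697 and 744 CPM in GFP and 357, 327 and 350 CPM in CRE (replicates in order, here and below). The libraries of each group lay close together, and the log2 fold change was -1.07 (SE 0.05). Rpl34 had 191, 176 and 213 CPM in GFP and 94.1, 85.0 and 98.5 CPM in CRE, a log2 fold change of -1.06 (SE 0.08), and its groups were likewise well apart. Rpl13 (541 ± 23.6 against 298 ± 27.0 CPM, SD, n = 3) was at -0.86 (SE 0.07). Rpl4, a protein lining the exit tunnel of the growing chain, went from 1066 ± 31.4 to 608.5 ± 49.6 CPM, a log2 fold change of -0.81 (SE 0.06).

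Rpl5 and Rpl11 form, with the 5S ribosomal RNA, a particle that joins the large subunit and that can also bind MDM2, the ubiquitin ligase of p53. Rpl5 had 635, 586 and 637 CPM in GFP and 360, 327 and 358 CPM in CRE, and Rpl11 had 272, 263 and 288 CPM in GFP and 171, 159 and 176 CPM in CRE. Both were apart between the groups, with log2 fold changes of -0.83 (SE 0.05) and -0.70 (SE 0.05). Rpl23, another protein that binds MDM2, was at -0.56 (SE 0.08), and its CPM were 454 ± 49.4 in GFP and 307.5 ± 26.5 in CRE. Rpl10, which joins late and sits beside the tRNA sites, was at -0.72 (SE 0.06), and Rpl13a, known also for a role outside the ribosome in the interferon-gamma response, at -0.77 (SE 0.05).

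The proteins of the stalk, the flexible arm of the large subunit that engages the GTPases of translation, lay at the other end of the order. Rplp0 had 1852, 1701 and 1851 CPM in GFP and 1455, 1352 and 1450 CPM in CRE, a log2 fold change of -0.34 (SE 0.05). Rplp1 had 386, 357 and 449 CPM in GFP and 337, 275 and 314 CPM in CRE, with a log2 fold change of -0.36 (SE 0.09). Rplp2 was at -0.34 (SE 0.08). All 3 were called lower without overlap of the groups, at 77.7% to 79.2% of the GFP mean. In the main fit they were the 3 smallest declines among the common large subunit genes, next to Rpl37a at -0.37 (SE 0.12) and Rpl41, the shortest ribosomal protein, at -0.39 (SE 0.09). The gaps to Rpl37a are below the SEs. Without GFP replicate 3, Rpl37a declined less than each of the 3 stalk genes. Rplp1 and Rplp2 no longer passed with libraries scaled by size alone (-0.20 and -0.18), in FPKM (-0.20 and -0.19) or without GFP replicate 3 and CRE replicate 2 (-0.19 and -0.21), and Rpl41 did not pass with library size alone or in FPKM (-0.23 in both).

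Among the small subunit genes the common copies lay between -0.77 (Rps3a1) and -0.24 (Rps21). Rps26, at the mRNA exit channel, went from 454 ± 24.1 to 269 ± 23.1 CPM (log2 fold change -0.75, SE 0.07), and Rps3, at the mRNA entry, from 458 ± 21.7 to 289 ± 17.3 CPM (-0.66, SE 0.06). Rps6, the substrate of the S6 kinases downstream of mTORC1, had 657, 612 and 658 CPM in GFP and 455, 396 and 441 CPM in CRE. Its log2 fold change of -0.58 (SE 0.06) was that of the median small subunit gene. Rps14 was at the same value (SE 0.07). Rps19, the gene most often mutated in the inherited anaemia named after Diamond and Blackfan, differed less, at -0.37 (SE 0.06), with 181, 174 and 195 CPM in GFP and 151, 134 and 139 CPM in CRE.

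Members with another role or an unusual precursor were not set apart. Rpsa, known also as a laminin receptor, went from 1199 ± 61.4 to 865 ± 33.5 CPM (log2 fold change -0.47, SE 0.05). Rps27a, made as a fusion with ubiquitin, was at -0.42 (SE 0.07). Ribosomal proteins that the name rule leaves out were lower as well. Rack1, a scaffold on the small subunit head, was at -0.76 (SE 0.05), while Fau, made as a fusion with a ubiquitin-like protein, was at -0.40 (SE 0.07).

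Single common copies departed from the rest by their error or by overlap. Rps21 was the only one of the 77 not called lower. It had 69.6, 66.5 and 88.3 CPM in GFP and 68.9, 58.3 and 63.6 CPM in CRE, so that its groups overlapped and GFP replicate 3 alone stood high (log2 fold change -0.24, SE 0.10). It was called lower by DESeq2, with length and GC offsets and without GFP replicate 1 or 2. Rps21 was not called without GFP replicate 3, alone or together with CRE replicate 2. With library size alone (-0.074) and in FPKM (-0.063) it lay nearer to no change and was not called. Rps29 was called lower although its groups overlapped, with 55.7, 50.8 and 78.6 CPM in GFP and 53.2, 35.7 and 44.4 CPM in CRE (-0.48, SE 0.17). It is one of the short members in which GFP replicate 3 stood high and CRE replicate 2 low, and it was no longer called without GFP replicate 3 (-0.26), CRE replicate 2 (-0.34) or CRE replicate 3 (-0.47), by DESeq2 (-0.48), with library size alone (-0.32) or in FPKM (-0.30). Rpl37a was likewise not called without GFP replicate 3 (-0.23) or CRE replicate 2 (-0.24), by DESeq2 (-0.37), with library size alone (-0.21) or in FPKM (-0.20). Without both GFP replicate 3 and CRE replicate 2, neither was called, with Rps29 at -0.12 and Rpl37a at -0.11.

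**Figure D3:**
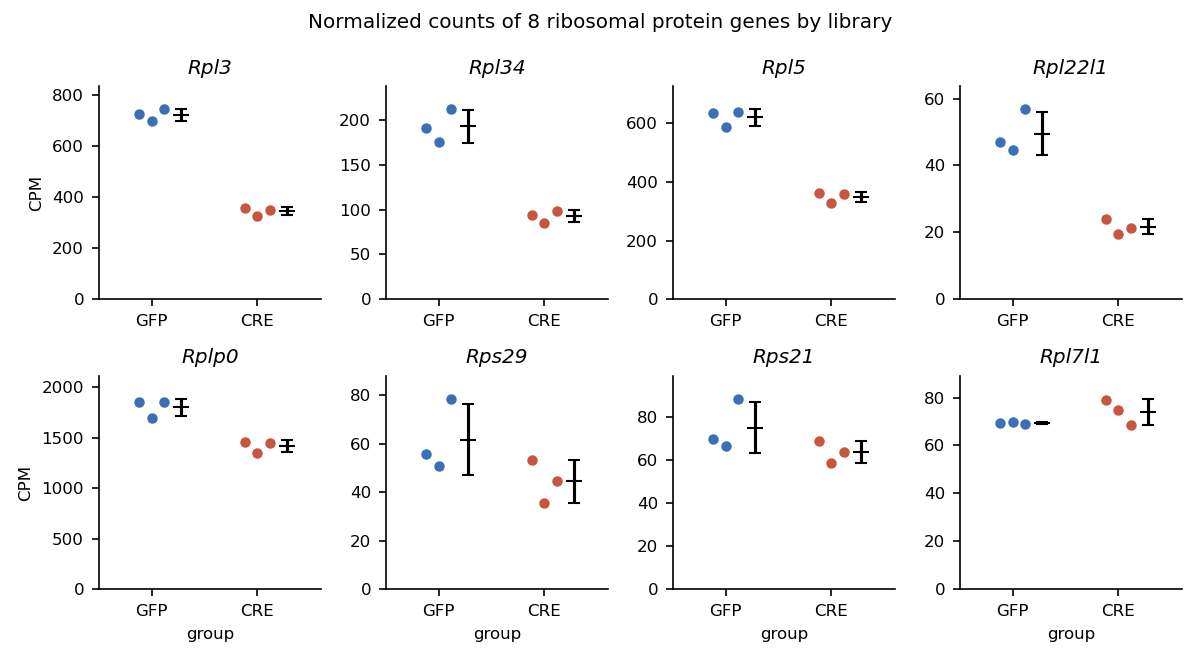
CPM (y axis, from 0) in each GFP (blue) and CRE (red) library for 8 ribosomal protein genes, with the mean and SD (n = 3) beside the points. Rpl3, Rpl34, Rpl5, Rpl22l1 and Rplp0 show groups apart, whereas Rps29, Rps21 and Rpl7l1 overlap.

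Of 9 paralogues and other copies, 5 had enough counts to be tested and these did not share one behaviour. Rpl22l1, a paralogue of Rpl22, had the lowest fold change of all members. Its CPM were 46.9, 44.7 and 56.9 in GFP and 24.1, 19.7 and 21.3 in CRE, with no overlap (log2 fold change -1.19, SE 0.10), while Rpl22 went from 121 ± 12.1 to 76.2 ± 6.63 CPM (-0.67, SE 0.08). Rpl22l1 thus had 39.5%, 40.7% and 42.5% of the counts of Rpl22 in GFP and 28.9%, 28.1% and 28.2% in CRE. A ratio within a library does not depend on how libraries are scaled.

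Rps27l and Rpl7l1 did not pass the threshold while their common copies were called lower. Rps27l, a paralogue of Rps27 that p53 is known to induce, had 47.7, 45.1 and 60.8 CPM in GFP and 53.5, 43.7 and 47.9 CPM in CRE, with overlap (log2 fold change -0.08, SE 0.11, with the sign turning under several alternatives). Its counts were 42.4%, 42.6% and 40.7% of those of Rps27 in GFP and 57.7%, 55.6% and 55.8% in CRE, because Rps27 was at -0.52 (SE 0.12). Rpl7l1, a factor of large subunit assembly related to Rpl7, had 69.2, 69.8 and 68.9 CPM in GFP and 79.2, 74.8 and 68.4 CPM in CRE, again with overlap (0.10, SE 0.06). Relative to Rpl7 (-0.62, SE 0.06) its counts were 9.97% ± 0.63 in GFP and 16.4% ± 1.40 in CRE (SD, n = 3). Rpl7l1 alone among the 82 tested members had a positive fold change, and it was called higher with libraries scaled by size alone (0.26) and without CRE replicate 3 (0.15).

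Rpl36al moved with Rpl36a. Their log2 fold changes were -0.57 (SE 0.06) and -0.66 (SE 0.10), and Rpl36al held 63.0% ± 4.02 of the counts of Rpl36a in GFP and 67.0% ± 5.22 in CRE, with overlap. Rps27rt, a retrocopy of Rps27, had 16, 16 and 29 raw counts in GFP and 14, 20 and 0 in CRE, too few to place (-0.89, SE 0.65).

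**Figure D4:**
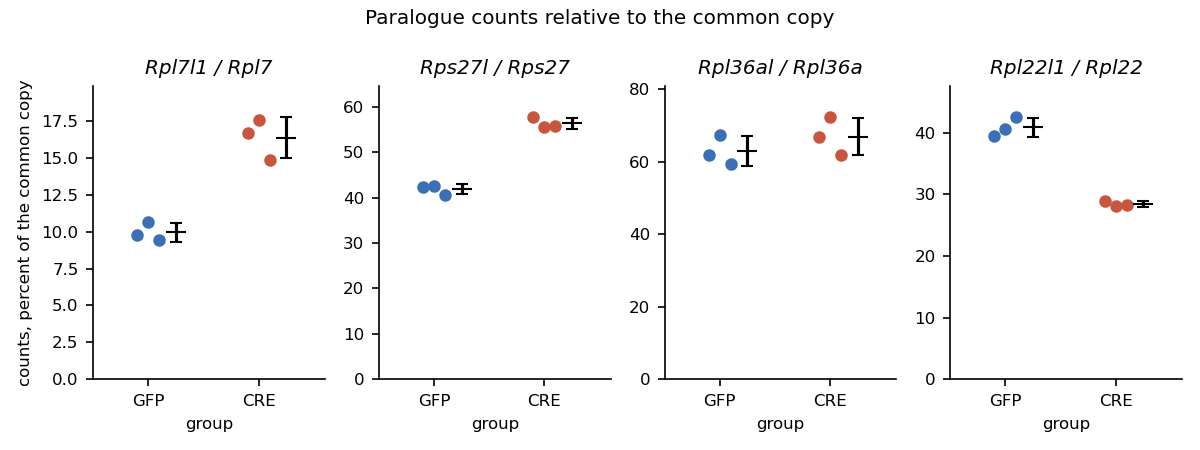
Counts of 4 paralogues as a percent of the counts of their common copy (y axis, from 0) in each GFP (blue) and CRE (red) library, with the mean and SD (n = 3) beside the points. Rpl7l1 and Rps27l are higher in every CRE library than in every GFP library, Rpl22l1 is lower, and Rpl36al overlaps.

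The paralogues and other copies with too few counts to be tested were nearly absent. Rpl3l, the form of Rpl3 found in heart and skeletal muscle fibres, had 1 count in CRE replicate 1 and 0 in the other libraries. Rpl10l, a testis form of Rpl10, had 0 counts in all 6, and a count of 0 allows up to 3 counts, or between 0.148 and 0.176 unscaled CPM in these libraries, for counting error only. Rps23rg1 had 1, 0 and 1 counts in GFP and 0 in all 3 CRE libraries. Rpl39l had 9, 8 and 8 counts in GFP and 8, 12 and 7 in CRE, where Rpl39 itself had 1049 to 1690 in GFP and 694 to 996 in CRE.

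Levels of different genes can be compared per length only, and the length assumed matters for this group. In the deposited FPKM (fragments per kilobase, scaled by the authors to library totals) the median of the 77 common copies was 406 in GFP and 291 in CRE. The third quartile was 2.08 times the first in GFP. The highest were Rplp0 (1257 ± 60.9), Rps24 (1178 ± 93.3), Rps2 (1054 ± 51.8), Rpl23a (1025 ± 82.1) and Rplp1 (752.5 ± 89.1, SD, n = 3). Rps2 and Rpl23a differed by less than their SDs. The lowest tested members were Rps27rt at 2.84, Rpl7l1 at 36.2 and Rps20 at 56.8.

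CPM without TMM, per kilobase of the annotated exons of protein-coding transcripts, gave another order for some genes. Rplp0 (1071 ± 51.4) was again highest, followed by Rpl23a (1025 ± 82.1), Rps2 (807 ± 39.7), Rplp1 (752.5 ± 89.1) and Rps3a1 (712 ± 39.3), and the lowest were Rps27rt, Rpl7l1 and Rps15a. Rps15a fell to 39.1 on this scale against an FPKM of 415, as the exons of its protein-coding transcripts sum to 6000 bases while the deposited values imply 572. The same holds for Rps24 and Rpl22, so an order of levels within the group rests on the length chosen. The ratio of Rpl22l1 to Rpl22 was 40.4% in GFP and 27.2% in CRE by FPKM, but 150.5% and 105% per kilobase of exon.

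Most members share sequence with other genes, which matters for how reads are assigned. Of windows of 100 bases in the longest coding transcript of each gene, a median of 29.7% occurred letter for letter in the transcript of another annotated gene, and 78 of the 86 members shared at least 1 such window. The share was over 50% in 23 members and reached 89.5% in Rps27rt. Those 23 had a median log2 fold change of -0.63. Of the 5 tested members that shared none, 3 were called lower and Rps21 and Rps27l were not, and their median was -0.66. How reads matching several places were counted is not given in the sources used here, so the counts of members with a high share are uncertain between gene and copy. The 86 genes lie on 19 chromosomes, and 4 of them, Rpl10, Rpl36a, Rpl39 and Rps4x, are on the X chromosome, all called lower. Beside these counts, 25.7% of all tested genes were called lower.

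The pathway around these genes was read from lists chosen with earlier results known. A list of 18 other genes known for TOP mRNAs, which is not a full set, was read first. All 18 were called lower, against 25.7% of all tested genes, with a median log2 fold change of -0.57. Their start sites were not examined here. Among them were the elongation factors Eef2 (2799 ± 118 to 1536 ± 83.3 CPM, log2 fold change -0.87, SE 0.05) and Eef1a1 (9039 ± 233 to 5281 ± 252 CPM, -0.78, SE 0.04), the poly(A)-binding protein Pabpc1 (-0.66, SE 0.05) and Tpt1 (-0.52, SE 0.05). The smallest difference was that of Eef1d at -0.21 (SE 0.05). Mitochondrial ribosomal protein genes, which are encoded in the nucleus but serve another ribosome, lay elsewhere. Of 78 tested, 9 were called lower and 19 higher, with a median of 0.09, and the count of higher genes is near the 25.5% of all tested genes. Scaled by library size alone, which moves the median of all genes from 0.01 to 0.17, 15 of the 18 TOP mRNAs were called lower (median -0.41), and 3 mitochondrial genes lower and 42 higher (median 0.25), where 16.2% of all tested genes were called lower and 42.9% higher.

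**Figure D5:**
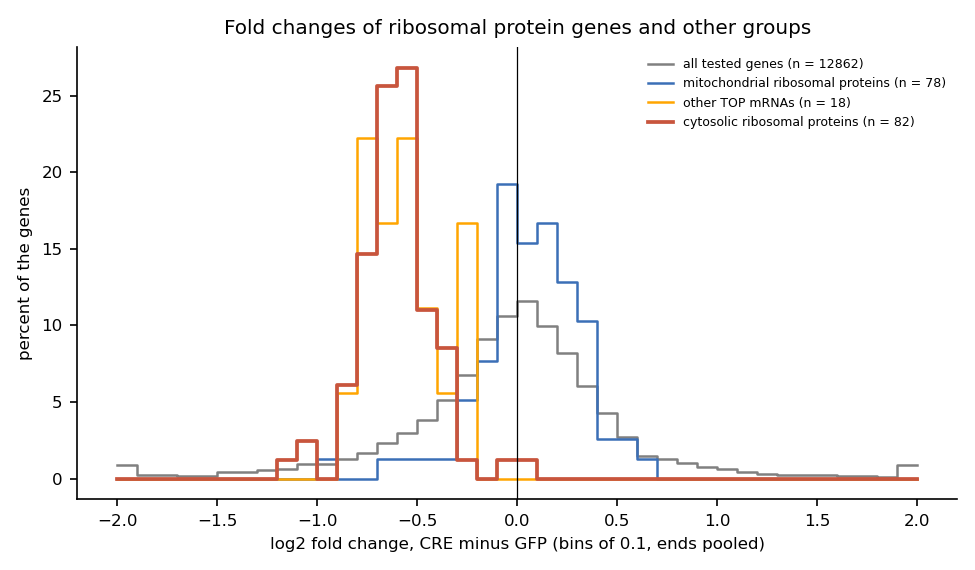
Percent of genes (y axis) by log2 fold change of CRE against GFP in bins of 0.1 (x axis) for all 12862 tested genes, 82 cytosolic ribosomal protein genes, 18 other TOP mRNAs and 78 mitochondrial ribosomal protein genes. The cytosolic genes and the other TOP mRNAs lie around medians of -0.59 and -0.57, and the mitochondrial genes around 0.09.

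Genes of the control by mTORC1, LARP1 and MYC went in both directions, with 7 of 20 called lower, 6 called higher and a median of 0.08, beside 25.7% and 25.5% of all tested genes. With library size alone, 4 were called lower and 11 higher, with a median of 0.24, beside 16.2% and 42.9% of all. Larp1 was lower (217.5 ± 11.7 to 176 ± 2.44 CPM, log2 fold change -0.30, SE 0.05), as were the S6 kinase gene Rps6kb1 (-0.36, SE 0.05) and Eif4ebp1 (-0.41, SE 0.09). Mtor itself and its partner Rptor were higher, both at 0.36 (SE 0.05 and 0.06), as was the second S6 kinase gene Rps6kb2 (0.58, SE 0.08). Myc, a known activator of ribosomal protein genes, had 40.4 ± 4.61 CPM in GFP and 41.9 ± 2.65 CPM in CRE (0.05, SE 0.08). Mnt, which competes with MYC for the partner MAX, was lower at -0.80 (SE 0.12). These are mRNA levels, and the activity of the kinases was not measured here.

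Of 8 chaperones that escort single ribosomal proteins, Ltv1, which acts on the small subunit head (-0.47, SE 0.08), and Bccip, the chaperone of Rpl23 (-0.33, SE 0.07), were called lower and 0 were higher, with a median of -0.20 (1 was higher with library size alone, median -0.04). A count of 2 in 8 is near the 25.7% of all tested genes that were called lower. Of 6 genes around MDM2 and p53, 3 were called higher, Mdm2 (137 ± 5.22 to 207 ± 12.5 CPM, log2 fold change 0.60, SE 0.05), Sesn2 (0.50, SE 0.09) and Cdkn1a (0.26, SE 0.05), and 0 were lower, beside 25.5% and 25.7% of all tested genes. Trp53 was at -0.10 (SE 0.04).

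Most markers of fibroblasts, of endothelium and of smooth muscle and pericytes were lower in CRE, as the ribosomal protein genes were. For reference, 25.7% of all tested genes were called lower. Of 9 fibroblast markers 8 were called lower (median -0.74), with a summed level of 29274 to 30439 CPM in GFP and 18096 to 19505 CPM in CRE. Of 5 endothelial markers 4 were called lower (316 to 351 against 161 to 184 CPM), and of 5 smooth muscle and pericyte markers 4 (58.0 to 62.0 against 23.8 to 27.3 CPM). Of 5 macrophage markers 3 were tested and 1, Adgre1, was lower (9.94 to 11.0 against 6.49 to 8.36 CPM for the list). Cd68 (-0.43, SE 0.25) and Csf1r (-0.05, SE 0.19) did not pass. The cardiomyocyte markers had too few counts to be tested. The part of these differences in the level of the ribosomal protein mRNAs was not tested.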

How the data were processed

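RNA-seq was performed on 6 libraries, 3 GFP and 3 CRE, grouped by the sample titles. The methods of the study name Trimmomatic for trimming, HISAT2 for alignment to GRCm38, HTSeq-count for counts and Cufflinks for FPKM. Tool versions, the strand setting and the treatment of multi-mapped reads are not given in the sources used here. The labels and the methods name different extraction and library kits. Raw gene counts deposited by the authors were analysed, and FPKM values deposited by the authors were used for levels per length. The authors' group means, log2 fold changes, p-values and false discovery rates were also deposited by the authors and were not used.

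Low genes were dropped with filterByExpr (count 10, total 15), and libraries were scaled by TMM (factors 0.944 to 0.947 in GFP, 1.05 to 1.06 in CRE) and compared over the 12862 genes left with edgeR 4.0.16 (R 4.3.3) by the two-sided quasi-likelihood test on the 6 libraries, with Benjamini-Hochberg adjustment over all genes and a threshold of 0.05. CPM is the count scaled to an effective library size of 1e6. A standard error is the size of the log2 fold change over the root of its F value. A call says only that a gene passed this test, and p-values measure the spread between these libraries.

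Some single-gene results are not reported here. The members and the lists were chosen with earlier results of these data known. Named are Tet3, the 5 lowest and 5 highest log2 fold changes, tested members that were not called, the highest and lowest levels, the paralogues with their common copies, and members with well-known roles. Rps29, Rpl37a, Rpl41, Rps3a1 and Rps7 and the genes named from the lists were chosen after their values were seen, as were the motifs and windows printed. Coordinates and exon lengths come from GENCODE M21 (GRCm38), which held 21973 of the genes, and promoter windows from RefSeq (GRCm38.p6), matched by symbol. Alternatives were RLE, library size alone, upper-quartile scaling, TMM without the members, no filter beyond 1 count, DESeq2 1.42.0, limma-voom (limma 3.58.1), limma on log2(FPKM + 1), length and GC offsets, a replicate block, each library left out and the threshold of the study. Leaving out GFP replicate 3 and CRE replicate 2 together was added after seeing the data. Figures were drawn with matplotlib 3.10.9.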

Additional observations from a re-analysis of the deposited data

How the results depend on the processing

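The number of members called lower was 78 and stayed between 73 and 79 under every other scaling, filter, model or left-out library that was run, and the median log2 fold change stayed negative. With the threshold of the study, 40 were lower and 0 higher. The size depended on the scaling. Library size alone gave a median of -0.43 with 1 member higher (Rpl7l1), and limma on log2(FPKM + 1) also gave -0.43. Library size alone moved the median of all genes to 0.17 and FPKM to 0.13, and 72.6% of all calls were then higher under library size alone, in place of 49.8%. Relative to the median of all genes, the members' median was -0.60 with library size alone and -0.57 with FPKM. Length and GC offsets gave -0.51. Leaving out one library at a time gave between 76 and 79 members lower, 0 or 1 higher (Rpl7l1, without CRE replicate 3) and a median between -0.65 and -0.52. Without both GFP replicate 3 and CRE replicate 2, 74 were lower, 0 higher, and the median was -0.47. Over all genes that fit called 2340 lower, against 3306 in the main fit.

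Rps27l turned to a positive log2 fold change with library size alone (0.077), limma on log2(FPKM + 1) (0.086), length and GC offsets (0.045), without GFP replicate 3 (0.059) and without GFP replicate 3 and CRE replicate 2 (0.13). It passed the threshold in none of these, and over the fits that leave out one library it lay between -0.17 and 0.059. Of 35 named genes under 17 other fits, 562 values kept both direction and side of the threshold, 21 lost the call, 7 gained one and 5 turned sign. The causes were not tested.

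GFP and CRE share replicate numbers. Same-numbered libraries deviated together with correlations of 0.0699, 0.169 and 0.00422, and differently numbered ones with correlations between -0.121 and 0.0511. With 3 libraries in a group these values cannot settle whether the libraries are paired. The labels give only the number, and the main fit did not treat them as pairs. A fit with the replicate block called 79 members lower and 0 higher, with a median of -0.59, and the added call was Rps21 (-0.23). Named genes with few counts, above all Rps27rt, are limited by depth.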

Other observations

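The name rule leaves out 7 rows marked as pseudogenes. One of them, Rpl10-ps3, had counts like those of Rpl10. It had 5646, 5513 and 6224 counts in GFP replicates 1, 2 and 3 and 3634, 3096 and 3361 in the CRE replicates, where Rpl10 had 4448, 4768 and 5921 in GFP and 3282, 2938 and 3402 in CRE. Its log2 fold change was -0.86 and that of Rpl10 -0.72. Of the 100-base windows of Rpl10, 84.4% occurred in the transcripts of 10 other annotated genes. The other 6 rows had between 0 and 21 counts per library.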
